A study of Mus musculus with 6 samples.

Results

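The genes described are the 4 fibroblast growth factor (FGF) receptors Fgfr1, Fgfr2, Fgfr3 and Fgfr4 and 6 FGF ligands, Fgf1, Fgf2, Fgf5, Fgf7, Fgf10 and Fgf18. They are the rows of the count table that carry these symbols, 10 genes of 45703, and each symbol occurred once. The table holds 6 primary cultures of dorsal root ganglia, which hold the cell bodies of sensory neurons and their glia, from C57BL/6 mice of wild type genotype aged 4 to 6 weeks. Every culture grew for 7 days in medium that contained 10% fetal calf serum, EGF at 10 ng/ml and FGF at 10 ng/ml, and each RNA sample came from 2 dishes. All samples formed 1 group, so no culture without added FGF could be compared, and the labels do not name the FGF that was added. The labels call the cultures biological replicates but do not say which animals each came from, so the p-values below describe only these samples. The exact permutation tests use the samples as units, and the chi-square test sets their differences against counting noise.

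FGFs are secreted proteins that bind receptor tyrosine kinases together with heparan sulfate on the cell surface. The bound receptor phosphorylates the docking protein FRS2 and so feeds the RAS-ERK, PI3K and PLC-gamma pathways, which drive growth, survival and migration in many cell types. In peripheral nerve, FGF2 is known as a factor for sensory neurons and Schwann cells, and FGF7 and FGF10 are known as factors that connective tissue cells make and that act on the FGFR2 form of epithelia.

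The libraries held 20070639 to 22968642 counts, and 3 counts corresponded to 0.131 to 0.149 CPM (the usual scaling of a count by the total of its library). Marker genes of several cell types were present in each library. All 6 glial lineage markers and all 10 neuron markers reached 1 CPM in every culture, as did 6 of 7 fibroblast, 5 of 8 mural, 6 of 8 macrophage and 4 of 8 endothelial markers. Of 4 epithelial markers, Epcam, Krt8 and Krt18 had at most 3 counts in every library, whereas Cdh1 averaged 20.8 ± 6.61 CPM (SD, n = 6). The cultures differed in make-up at the level of markers: the summed CPM of the 7 fibroblast markers ran from 3339 in replicate 1 to 13977 in replicate 5, and that of the 6 glial lineage markers from 4148 in replicate 5 to 5962 in replicate 2. Because RNA came from whole cultures, fewer cells of a type and less RNA per cell cannot be told apart.

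Fgfr1 accounted for nearly all receptor RNA. Fgfr1 (chromosome 8, 25518759 to 25575718, plus strand, GRCm38.p6) encodes a receptor found in neural and connective tissue cells. Its level was 263, 323, 280, 304, 298 and 303 CPM in replicates 1 to 6, with a mean of 295 ± 20.7 CPM (SD, n = 6). The cultures lay close together, and the highest was 1.23 times the lowest. Scaled by exon length, Fgfr1 made up 98.8% ± 0.899 (SD, n = 6) of the summed level of the 4 receptors. Its lowest share, 97.1%, was in replicate 5.

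Fgfr2 (chromosome 7, 130162451 to 130266808, minus strand) encodes the receptor whose epithelial splice form binds FGF7 and FGF10, while its mesenchymal form binds other FGFs; the table gives 1 value per gene and does not separate splice forms. It was counted at 0.522, 1.55, 2.82, 2.94, 7.21 and 1.63 CPM in replicates 1 to 6, a mean of 2.78 ± 2.35 CPM (SD, n = 6). Replicate 5 stood above the rest and replicate 1 below them, a span of 13.8-fold. Fgfr3 (chromosome 5, 33721724 to 33737068, plus strand), known for its role in cartilage and glia, was counted 5, 13, 17, 16, 40 and 22 times, or 0.892 ± 0.571 CPM. It was lowest and highest in the same cultures as Fgfr2. Fgfr4 (chromosome 13, 55152818 to 55168759, plus strand), best known from liver and muscle progenitors, had 0, 3, 0, 1, 0 and 2 counts. Pooled over the libraries this was 6 counts of 128512422, or 0.0467 CPM with an exact 95% Poisson interval of 0.0171 to 0.102 that covers counting error only. Fgfr4 was thus at or under the limit of detection in every culture.

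Among the ligands, Fgf2 was the most abundant per length. Fgf2 (chromosome 3, 37348477 to 37410106, plus strand) encodes a ligand without a classical signal peptide that binds several receptors. Its level was 194, 198, 325, 297, 261 and 343 CPM in replicates 1 to 6, a mean of 269 ± 63.2 CPM (SD, n = 6). Replicates 1 and 2 were the lowest, and the highest culture was 1.76 times the lowest. Fgf1 (chromosome 18, 38838672 to 38929470, minus strand), the other ligand of the list without a classical signal peptide, binds all FGF receptors. It was counted at 41.8, 42.9, 61.3, 59.9, 30.8 and 69.8 CPM, a mean of 51.1 ± 14.8 CPM. Its lowest culture was replicate 5, in which Fgfr2 and Fgfr3 were highest.

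Fgf5 (chromosome 5, 98254184 to 98277033, plus strand) is known as the secreted factor that ends the growth phase of hair. Its values of 75.2, 38.3, 43.3, 44.6, 90.4 and 20.1 CPM averaged 52.0 ± 25.9 CPM (SD, n = 6). Replicates 5 and 1 were high and replicate 6 was low, a span of 4.50-fold. Fgf7 (chromosome 2, 126034658 to 126091185, plus strand), also called keratinocyte growth factor, was at 2.05, 7.92, 10.7, 17.9, 34.2 and 9.18 CPM, a mean of 13.6 ± 11.3 CPM. It spanned 16.7-fold between replicates 1 and 5, more than any other member with over 3 counts in every library.

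Fgf10 and Fgf18 were near the limit of the counts. Fgf10 (chromosome 13, 118714699 to 118792573, plus strand), a mesenchymal ligand needed for lung and limb buds, had 2, 10, 7, 13, 24 and 9 counts, or 0.515 ± 0.360 CPM (SD, n = 6). Fgf18 (chromosome 11, 33116970 to 33147400, minus strand), a ligand of bone and cartilage growth, had 9, 15, 29, 13, 27 and 25 counts, or 0.924 ± 0.399 CPM. Replicate 1 was lowest for both, and 1 CPM was reached by Fgf10 in 1 culture and by Fgf18 in 3.

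The upstream sequences of Fgf5 and Fgf7 are shown because these secreted ligands had different patterns over the cultures: Fgf5 was high in both replicate 1 and replicate 5, while Fgf7 was low in replicate 1 and high in replicate 5. The sequences are from RefSeq on GRCm38.p6, plus strand, 5′ to 3′, and end at the base before the annotated start. RefSeq windows were matched for 8 of the 10 genes. Capitals mark matches on either strand to 4 motifs, the GC box GGGCGG, the CCAAT box CCAAT, the TATA box TATAAA and the AP-1 motif TGANTCA, none of which overlapped another in these windows.
Fgf5 chr5:98253934-98254183: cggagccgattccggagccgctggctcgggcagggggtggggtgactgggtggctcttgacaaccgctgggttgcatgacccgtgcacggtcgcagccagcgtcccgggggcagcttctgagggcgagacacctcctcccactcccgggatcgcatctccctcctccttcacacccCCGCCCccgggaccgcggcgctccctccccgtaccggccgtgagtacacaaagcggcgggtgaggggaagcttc
Fgf7 chr2:126034408-126034657: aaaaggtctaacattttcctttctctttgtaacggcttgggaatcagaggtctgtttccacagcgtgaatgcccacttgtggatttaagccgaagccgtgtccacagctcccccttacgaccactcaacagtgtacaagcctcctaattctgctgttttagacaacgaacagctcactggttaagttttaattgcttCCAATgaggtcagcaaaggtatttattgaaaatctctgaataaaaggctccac
The Fgf5 window had 70.8% G and C and 24 CG dinucleotides, and held 1 GC box, on the minus strand, which began 74 bases before the start. The Fgf7 window had 43.6% G and C and 6 CG dinucleotides, and held 1 CCAAT box, which began 53 bases before the start. Over 32851 RefSeq windows of 250 bases, the median was 52.4% G and C with 6 CG dinucleotides. A GC box was in 32.7% of them, a CCAAT box in 33.8%, a TATA box in 12.4% and an AP-1 motif in 6.75%. These matches describe the letters of the windows and no binding was measured.

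**Figure D1:**
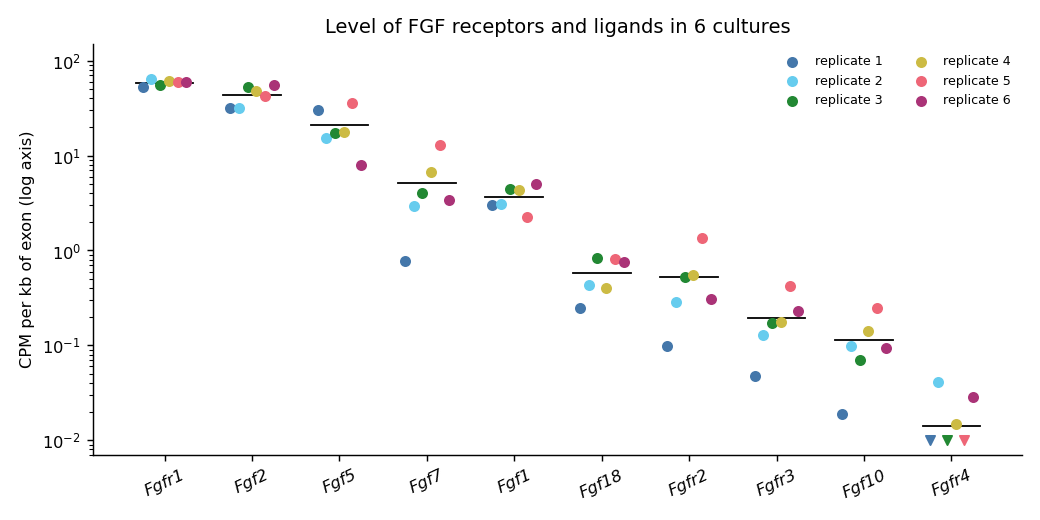
Level of each gene in each culture as CPM per kb of combined exon length, on a log axis, in the order of the means. Points are replicates 1 to 6, black lines are means of 6 cultures, and triangles at the foot stand for the 3 cultures in which Fgfr4 had 0 counts; Fgfr1 and Fgf2 lie at the top and Fgfr4 at the bottom.

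To compare genes with each other, levels were scaled to CPM per kb of the combined exon length of the gene. The order of the means was Fgfr1 at 58.8 ± 4.13, Fgf2 at 43.6 ± 10.2, Fgf5 at 20.8 ± 10.3, Fgf7 at 5.11 ± 4.22 and Fgf1 at 3.70 ± 1.07 CPM per kb (SD, n = 6). The lower genes were Fgf18 at 0.580 ± 0.251, Fgfr2 at 0.520 ± 0.440, Fgfr3 at 0.196 ± 0.125, Fgf10 at 0.113 ± 0.0787 and Fgfr4 at 0.0140 ± 0.0174 CPM per kb. Fgf1 and Fgf5 had near-equal CPM but not near-equal levels per length. The combined exons of Fgf1 (13815 bases) are longer than those of Fgf5 (2504 bases). The lengths of the transcripts present in the cultures were not measured and can differ from the combined exon length. The place of Fgf1 in the order, its pairs and its share of the ligands below depend on this length.

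Differences between genes were taken within each library as log2(CPM per kb + 0.1), for all 45 pairs of the 10 genes, and the mean difference was set against all sign patterns of the libraries (exact permutation, two-sided), where the smallest possible p over 6 libraries was 0.0312. Of the 45 pairs, 43 had the same direction in all 6 libraries and passed the test (exact permutation p = 0.0312, adjusted over the 45 pairs 0.0327). All 43 were at the smallest possible p, so the test does not rank them. The adjusted value of each depends on how many pairs reached that p. The remaining pairs were neighbours in the order. Fgf7 was above Fgf1 in only 2 of 6 libraries, a log2 difference of 0.08 ± 1.43 (SD; exact permutation p = 0.875, adjusted 0.875). Fgf18 was above Fgfr2 in 4 of 6 libraries, a log2 difference of 0.31 ± 0.68 (exact permutation p = 0.312, adjusted 0.320). These neighbours did not differ beyond their spread, and single cultures decided which mean was higher. Without replicate 5 the means were 3.57 CPM per kb for Fgf7 and 3.99 for Fgf1, and without replicate 6 they were 0.546 for Fgf18 and 0.563 for Fgfr2.

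The other 7 neighbouring pairs passed within libraries, but the ranges of 6 of these pairs overlapped between cultures. Fgfr1 exceeded Fgf2 by 0.46 ± 0.36 on the log2 scale (SD, n = 6), or 1.35 times in the means, and Fgf2 exceeded Fgf5 by 1.19 ± 0.99. Fgf5 exceeded Fgf7 by 2.27 ± 1.46, and Fgfr2 exceeded Fgfr3 by 0.90 ± 0.48. Only between Fgf1 and Fgf18, at 2.52 ± 0.67, did all cultures of the higher gene lie above all cultures of the lower one. Differences among the lower genes depend on the pseudocount, since their levels were close to it. Fgfr2 minus Fgfr3 was 0.31 with a pseudocount of 1 and 1.20 with 0.01, against a ratio of the means of 2.65, and the differences of Fgfr3, Fgf10 and Fgfr4 from one another moved in the same direction. Fgf1 minus Fgf18 was 1.55 with a pseudocount of 1.

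As shares of the summed CPM per kb of 18 genes for secreted FGFs, Fgf2 made up 58.3% ± 11.6 and Fgf5 27.5% ± 12.2 (SD, n = 6). Fgf7 followed with 6.28% ± 4.08 and Fgf1 with 5.05% ± 1.53. The balance between these ligands differed between cultures. In replicate 1, Fgf2 held 47.4% and Fgf5 45.3%, whereas in replicate 6, Fgf2 held 74.9% and Fgf5 10.8%. The Fgf7 share was 1.16% in replicate 1 and 13.1% in replicate 5.

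Whether a gene varied between cultures was tested for each of 14998 genes with enough counts, by a chi-square test of its 6 counts against library sizes scaled by edgeR's TMM method. Of these genes, 76.3% varied beyond counting noise at an adjusted p under 0.05, so a call alone is common. Fgfr1, Fgfr2, Fgf1, Fgf2, Fgf5 and Fgf7 passed the count filter, and all 6 were called, with adjusted p-values (chi-square test with edgeR scaling, Benjamini-Hochberg over 14998 genes) of 1.23e-40 for Fgfr1 and 9.48e-43 for Fgfr2 and smaller ones for the ligands. Fgfr3, Fgfr4, Fgf10 and Fgf18 did not pass the filter. Without the filter, 9 of the 10 genes were called, all but Fgfr4, where 50.2% of 26854 genes were.

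The size of the spread separated the members more than the calls did. The coefficient of variation (CV, the SD as a percentage of the mean, here of TMM-scaled CPM) was 7.88% for Fgfr1, below the median of 12.1% over the 14998 genes, and 27.0% of those genes had a lower CV. Fgf2 had a CV of 22.6%, Fgf1 of 28.7% and Fgf5 of 49.5%. Fgf7 at 81.9% and Fgfr2 at 83.8% were among the most variable genes of the libraries, with 98.9% and 99.0% of genes below them. Fgfr2 had 12 to 151 counts per library, and Fgfr1 had 6050 to 7093. Counting noise therefore contributes more to the CV of Fgfr2 than to that of Fgfr1. The 14998 genes span all levels that passed the filter, and CVs were not compared among genes of like level.

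**Figure D2:**
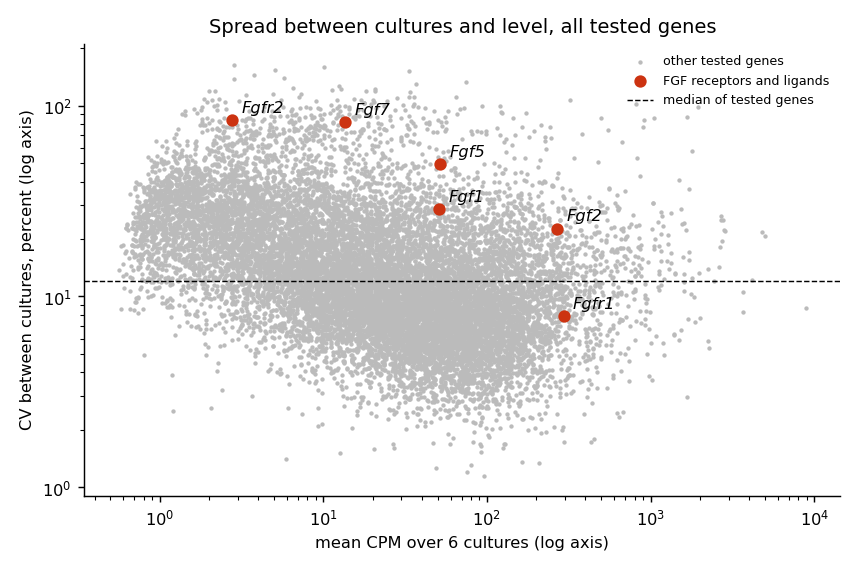
CV between the 6 cultures in percent against mean CPM, both on log axes, for 14998 tested genes (grey) and the 6 FGF receptor and ligand genes among them (red). The dashed line is the median CV of 12.1%; Fgfr1 lies below it and Fgf2, Fgf1, Fgf5, Fgf7 and Fgfr2 above it.

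Several members had their extremes in the same cultures. Of the 9 members other than Fgfr4, 7 were lowest in replicate 1 and 5 were highest in replicate 5, and Fgfr2, Fgfr3, Fgf7 and Fgf10 were both. Fgf1 did the opposite in replicate 5, with its lowest value there, and Fgf5 was lowest in replicate 6. The share of all genes with these extremes was not computed, so whether these counts are particular to the members is not known. The summed CPM of the fibroblast, mural, macrophage and endothelial markers was also lowest in replicate 1 and highest in replicate 5. That of the glial lineage, neuron and epithelial markers was lowest in replicate 5. Of the members, Fgfr3, Fgf10 and Fgf18 had only 5, 2 and 9 counts in replicate 1. Relative to its own mean on the log2 scale, Fgf7 was at -2.74 in replicate 1 and 1.32 in replicate 5, and Fgfr2 at -2.41 and 1.38. Fgf10 was at 1.15 in replicate 5, and its 2 counts in replicate 1 allow only an upper bound of -1.98, taken at 3 counts. Fgfr1 stayed between -0.16 and 0.13 in all 6 cultures.

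**Figure D3:**
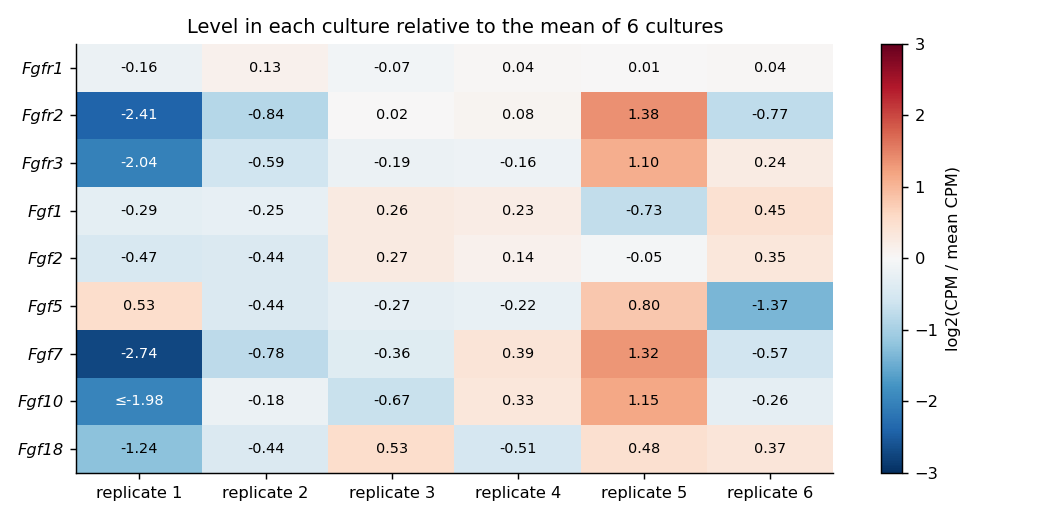
log2 of the CPM of each gene in each culture over its mean of 6 cultures; red is above the mean and blue below, and Fgfr4 is left out because 3 libraries had 0 counts. The Fgf10 cell of replicate 1, with 2 counts, shows the bound of -1.98 set by 3 counts. Fgfr2, Fgfr3, Fgf7 and Fgf10 are blue in replicate 1 and red in replicate 5, Fgf1 is lowest in replicate 5, and Fgfr1 is near 0 throughout.

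The 6 members that passed the filter were set against a fibroblast score and a glial lineage score, each the mean log2(TMM-scaled CPM + 0.5) of the marker list, giving 12 relations over 6 cultures. The fibroblast score was 5.73, 6.92, 7.03, 8.01, 8.75 and 6.76 in replicates 1 to 6. Fgf7 had Pearson's r = 0.98 with it (exact permutation p = 0.00417, adjusted over 12 relations 0.025). Its rank correlation, Spearman's rho, was 0.94 (p = 0.0167 by exact permutation, 0.0667 after adjustment). Fgfr2 had r = 0.96 (exact permutation p = 0.00278, adjusted 0.025) and the same rho and p-values of rho. Both relations passed by r and not by rho. Without replicates 1 and 5, which lay farthest from the median score, r over the remaining 4 cultures was 0.96 for Fgf7 and 0.74 for Fgfr2. With any single culture left out, r stayed at 0.962 or above for Fgf7 and at 0.915 or above for Fgfr2.

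The other 4 members had no relation with the fibroblast score that passed: r was 0.33 for Fgfr1, -0.32 for Fgf1, 0.34 for Fgf2 and 0.24 for Fgf5, with exact permutation p from 0.526 to 0.669 and adjusted values of 0.730 or 0.738. Their rho values were 0.09, -0.26, 0.20 and 0.43, with exact permutation p of 0.919, 0.658, 0.714 and 0.419 and adjusted values of 0.919, 0.779, 0.779 and 0.629. Without replicates 1 and 5, r was -0.12, 0.02, 0.05 and 0.59 in the same order.

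With the glial lineage score, 0 of 6 members passed. The strongest relation was that of Fgf5, with r = -0.78 (exact permutation p = 0.0694, adjusted 0.278) and a rho of -0.94 (p = 0.0167 by exact permutation, 0.0667 after adjustment). This rho was the 1 value of the glial relations with an unadjusted p under 0.05, and 0 values of r had one. Without replicates 4 and 5, the cultures farthest from the median glial score, r for Fgf5 was -0.91 over 4 cultures. For Fgfr1, Fgfr2, Fgf1, Fgf2 and Fgf7, r was 0.22, -0.67, 0.68, 0.08 and -0.58, with exact permutation p of 0.676, 0.143, 0.132, 0.903 and 0.226 and adjusted values from 0.343 to 0.903. Their rho values were 0.49, -0.60, 0.71, 0.37 and -0.60, with exact permutation p from 0.136 to 0.497 and adjusted values from 0.408 to 0.663. Without replicates 4 and 5, r was 0.86, 0.57, 0.53, 0.46 and 0.80, so the sign changed for Fgfr2 and Fgf7. Replicate 5 alone moved these values most towards 0: without it r was -0.11 for Fgfr2, -0.08 for Fgf7 and 0.13 for Fgf1, whereas without replicate 4 it was -0.66, -0.55 and 0.83. Without replicate 1, r was -0.96 for Fgfr2 and -0.99 for Fgf7. The labels give no culture or sequencing batch within which the relations could be recomputed.

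Markers of other cell types also differed between the cultures in which Fgf7 and Fgfr2 were low and high. Replicates 1 and 5 were the lowest and highest cultures of each of 3 further lists. The summed CPM was 271 and 1521 for the 8 mural markers, 16.8 and 163 for the 8 macrophage markers, and 15.1 and 144.5 for the 8 endothelial markers. The other lists did not follow this pattern. The summed CPM of the 10 neuron markers was 1727 in replicate 1 and 1006, its lowest, in replicate 5, and ran up to 2129 in replicate 3. That of the 4 epithelial markers, nearly all of it from Cdh1, was highest in replicate 1 at 29.95 and lowest in replicate 5 at 10.1, while Epcam, Krt8 and Krt18 had at most 3 counts in every library. The part of each cell type in the levels of Fgf7 and Fgfr2 was not tested.

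**Figure D4:**
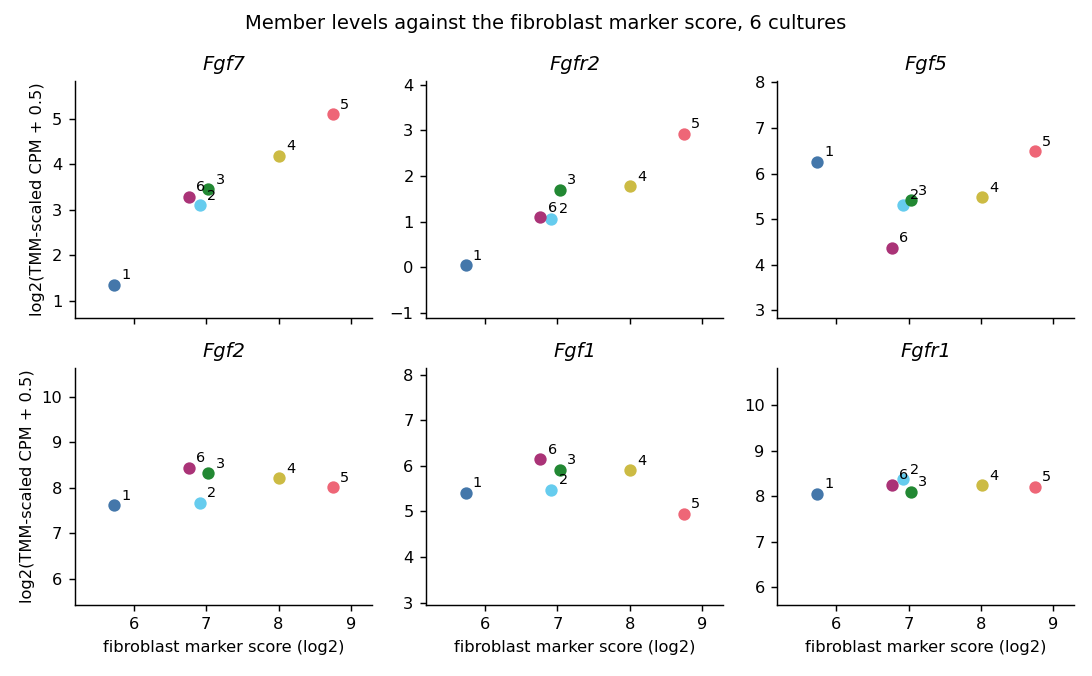
log2(TMM-scaled CPM + 0.5) of 6 genes against the fibroblast marker score, 1 point per culture, numbered by replicate; the vertical axes differ in position and span the same range. Fgf7 (r = 0.98) and Fgfr2 (r = 0.96) are higher where the score is higher, and in the other 4 panels no relation passed the test.

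The genes whose levels over the 6 cultures were most like those of each member were found by Pearson's r of log2(TMM-scaled CPM + 0.5) among genes with a mean of at least 5 CPM, 11158 genes for each member except Fgfr2, which was below that mean and had 11159. With 6 points and this many genes, high values of r occur without any link, and they are a description only. The profile of Fgf7 was closest to Lox, which encodes the collagen cross-linking enzyme lysyl oxidase (r = 0.9996; 26.3 to 980 CPM), Pon3 (r = 0.9992) and Inhba, the activin A subunit (r = 0.9992; 7.92 to 139 CPM). That of Fgfr2 was closest to Dse, an enzyme of dermatan sulfate synthesis (r = 0.998; 4.92 to 42.3 CPM), Itpr1 (r = 0.993) and Myadm (r = 0.993). For Fgf5 the closest were Il10rb (r = 0.989), Osbpl6 (r = 0.981) and Papola (r = 0.978). For Fgf1 they were Dlgap1 (r = 0.994), Pgs1 (r = 0.988) and Spryd3 (r = 0.987), and for Fgf2 they included Rnf181 (r = 0.982) and Dck (r = 0.969). For Fgfr1 they were Fbxl14 (r = 0.982), Phlda3 (r = 0.981) and Timm13 (r = 0.979), a ranking that rests on small differences because Fgfr1 varied little.

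The remaining 12 genes for secreted FGFs were low. None reached 1 CPM in all 6 cultures, and 7 had at most 3 counts in every library, among them Fgf4, Fgf6, Fgf8 and Fgf20 with 0 counts. With 0 counts in the smallest library, a level of up to 0.149 CPM remains possible. The highest was Fgf21, a ligand with hormone-like action, at 0.840 ± 0.948 CPM (SD, n = 6); it had 1 count in replicate 1 and 52 in replicate 5. Fgf9 averaged 0.579 ± 0.423 CPM and Fgf3 0.487 ± 0.243 CPM. None of the 12 passed the count filter of the chi-square test.

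The intracellular FGF homologous factors, which are not secreted and bind voltage-gated sodium channels, were present at 1 CPM in all cultures for 3 of 4 genes, and all 3 genes were called variable, where 76.3% of all tested genes were. That share is the background for the calls of each list below, and all of the lists lie near or above it with few genes, so the calls show nothing particular to a list. Fgf13 averaged 54.6 ± 15.1 CPM (SD, n = 6), Fgf11 27.8 ± 4.22 CPM and Fgf12 10.6 ± 3.05 CPM, while Fgf14 had at most 4 counts in a library. Among co-receptors and binding partners, 4 of 8 genes reached 1 CPM in all cultures, and all 5 genes tested were called (76.3% of all tested genes). Flrt3, a membrane protein that binds FGF receptors, averaged 145 ± 25.1 CPM, and Fgfrl1, a receptor without a tyrosine kinase domain, 34.4 ± 4.23 CPM. Flrt2 averaged 41.8 ± 40.8 CPM, with 4.70 CPM in replicate 1 and 119.8 CPM in replicate 5 as its extremes. Kl and Klb, the co-receptors of the hormone-like FGFs, had at most 3 and 4 counts in a library.

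Of the genes that pass the receptor signal on, all 9 adaptors reached 1 CPM in all cultures and 8 of 9 were called (76.3% of all tested genes). Their median CV was 6.70% against 12.1% over all tested genes, which were not matched to the adaptors or the lists below in level. Ptpn11, the phosphatase SHP2, averaged 285 ± 13.3 CPM (SD, n = 6), with fractional counts in all 6 libraries, and Frs2, the docking protein of the FGF receptors, 73.8 ± 3.29 CPM. Frs3 was not called, at an adjusted p of 0.489 (chi-square test with edgeR scaling). All 11 feedback and target genes reached 1 CPM and were called (76.3% of all tested genes), with a median CV of 21.8% against 12.1%. Dusp6, an ERK phosphatase, was at 48.2 CPM in replicate 1 and 121 CPM in replicate 5, and Spry1, a Sprouty inhibitor of receptor signalling, at 1.96 and 40.6 CPM. Spred1, a related inhibitor, averaged 204 ± 25.3 CPM, with fractional counts in 4 libraries.

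Heparan sulfate, the sugar chain that FGFs need to bind their receptors, is made and edited by the last list. All 9 of its genes reached 1 CPM in all cultures and all 9 were called (76.3% of all tested genes), with a median CV of 18.1% against 12.1%. Ndst1, which starts sulfation of the chain, averaged 662 ± 112 CPM (SD, n = 6), Hs2st1 319 ± 18.9 CPM and Ext2 145 ± 7.10 CPM. The sulfatases that remove 6-O-sulfate differed in spread and in direction. Sulf2 was at 350 CPM in replicate 1, 379 CPM in replicate 2 and at its lowest, 237 CPM, in replicate 5. Sulf1 was at its lowest, 19.2 CPM, in replicate 1 and at its highest, 272 CPM, in replicate 5.

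Genes annotated on the opposite strand overlap some members, and since the strand setting of the count was not given, reads of both strands in shared exons cannot be told apart. Fgf1 lies within Arhgap26, which averaged 18.5 ± 4.20 CPM (SD, n = 6). Fgf2 overlaps Nudt6 at its 3′ end over 5125 bases and Fgf2os at its 5′ end over 1365 bases, at 4.05 ± 0.425 and 0.420 ± 0.301 CPM. Fam227b around Fgf7 had at most 1 count in a library, and Gm31288 within Fgfr1 averaged 0.256 ± 0.184 CPM. Counts of 9 of the 10 members were whole numbers in all libraries, and Fgfr2 had a fractional count in 1 library.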

How the data were processed

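The deposited table gives estimated counts per gene for 6 RNA sequencing libraries, with no scaling by the authors. Per the submitters' processing notes, the tools included cutadapt 2.5, STAR 2.7.2b and featureCounts 1.6.4 on GRCm38.p6; strand and multi-read settings are not given in the sources used here. Between 13.4% and 14.7% of the gene rows of a library held a fractional count, and counts were rounded to whole numbers for the fits. Per the labels' protocols, libraries were stranded and poly-A selected. All 45703 gene IDs matched RefSeq GRCm38.p6.

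CPM used library totals and was divided by the deposited combined exon length for comparisons between genes. Genes were kept with filterByExpr (edgeR 4.0.16, R 4.3.3), and TMM factors lay between 0.976 and 1.02. The chi-square test was tested on simulated counts for 15622 genes: it called 100 of 100 genes changed 1.5-fold, 100 of 100 changed 2-fold and 1 other gene. The simulated counts held counting noise only, and the changed genes had a mean of at least 100 counts. The recovery therefore does not cover Fgfr2, which had 12 to 151 counts per library and a lower mean. Nor does it describe calls where replicates spread beyond counting noise. Exact tests were run in Python 3.11.15. DESeq2 1.42.0 size factors, other pseudocounts, no filter and leaving out single replicates were the alternatives.

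Members and lists were chosen with earlier results of these data known. Named genes were the members, the 3 genes most like each tested member (1 of them, for Fgf2, is not reported here), and up to 4 genes per pathway list by highest mean CPM; outside that rule, Spry1, Sulf1, Frs2, Frs3, Kl, Klb, the overlapping genes and the ligands with 0 counts were named after their values were seen.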

Additional observations from a re-analysis of the deposited data

Results flagged for a closer look

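Dixon's test compares how far the most extreme culture stands from the next one with the whole range. It was applied to 17 measures: the CPM of 10 members, not on a log scale, and 7 marker scores on the log2 scale. Of these, 2 passed the 95% critical value for 6 samples, against 0.85 expected by chance for normally distributed values. For Fgfr2 the ratio was 0.6387, with replicate 5 at 7.21 CPM and the next culture at 2.94 CPM. On the log2 scale relative to its mean, Fgfr2 was at 1.38 in replicate 5 and 0.08 in the next culture. At the low end it was at -2.41 in replicate 1 and -0.84 in the next. Dixon's test was not run on that scale, so the flag of Fgfr2 holds for CPM only. For the endothelial marker score the ratio was 0.6819, with replicate 5 at 3.44 and the next culture at 1.74. Both flagged extremes were in replicate 5, and the part of endothelial cells in the Fgfr2 level was not tested.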

How the results depend on the processing

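For the numbers of gene pairs, of members called variable and of relations that passed, all 25 alternative values stayed within 1.5 times the main number, which does not show that the order of the genes was kept. Without replicate 5, Fgf1 (3.99 CPM per kb) passed Fgf7 (3.57), and without replicate 6, Fgfr2 (0.563) passed Fgf18 (0.546); the order was the same without any other culture. The pairs with 1 direction in every library numbered 43 under each pseudocount, with TMM scaling and without any single culture. With 5 cultures the exact sign-flip test cannot pass, so only directions were compared. The members called variable numbered 6 to 7 without single cultures, and Fgfr1, Fgfr2, Fgf1, Fgf2, Fgf5 and Fgf7 were called each time. For single genes and pairs, 302 of 311 alternative values kept their direction and, where tested, their side of the threshold, or moved a level or difference by less than 1 SD. The 9 others changed sign without 1 culture, all of results that had not passed. The difference of Fgf7 from Fgf1 ran from -0.40 to 0.46. With the fibroblast score, r ran from -0.20 to 0.62 for Fgfr1, -0.15 to 0.56 for Fgf2, -0.70 to 0.52 for Fgf1 and -0.35 to 0.86 for Fgf5. With the glial lineage score it ran from -0.12 to 0.41 for Fgfr1 and -0.25 to 0.40 for Fgf2, and, with no change of sign, from -0.96 to -0.11 for Fgfr2, -0.99 to -0.08 for Fgf7 and 0.13 to 0.85 for Fgf1. The cause was not tested. No paired analysis was possible because all samples belonged to 1 group. Depth limits Fgfr4, Fgf10, Fgfr3 and Fgf18, which had at most 40 counts in a library.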
